A study of Mus musculus with 10 samples.

Results

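Vismodegib (GDC-0449), an inhibitor of the hedgehog signal transducer SMO, was compared with its solvent DMSO in SMB56 cells, a line from a spontaneous medulloblastoma of a Ptch+/- mouse. Both groups were the same Ptch+/- line, grown as neurospheres at passages 10 to 15 and treated for 8 h with DMSO or with 1 µM GDC-0449. The genes described are all 10008 of the deposited GDC-0449 table, out of 13976 genes found in any table of the series, and they were measured by RNA sequencing in 4 of the series' 10 libraries, 2 per group. Among them are 2591 genes that are absent from the series' SMB56 table for THZ1, an inhibitor of CDK7. The other libraries, SMB56 with THZ1 and SMB56-shSufu, a derivative with a hairpin against Sufu, entered 2 alternative fits only. SMB56 is a single tumour line. The labels number the libraries and say nothing of separate cultures, so every p-value here reflects the spread between libraries alone, and that spread may be technical.

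Hedgehog signalling runs through PTCH1, a receptor that holds SMO inactive until a hedgehog ligand binds it. Active SMO, at the primary cilium, lets GLI transcription factors turn on target genes, among them Gli1 and Ptch1 themselves. In the developing cerebellum this pathway drives the division of granule neuron progenitors, which then leave the cell cycle and become granule neurons, and tumours of the hedgehog class of medulloblastoma arise from that lineage.

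Total counts were 13131292 to 14986389 per library. Levels are CPM, read counts brought to a common library total, after TMM scaling, which sets each library against the others on the assumption that most genes do not differ. Differences are log2 fold changes of GDC-0449 over DMSO with their standard error (SE), and a gene was called at an adjusted p under 0.05 in edgeR's quasi-likelihood F test over all 10008 genes. There was no spike-in, so every level is relative to the other genes. Mitochondrially encoded genes took 3.29% of the counts in both DMSO libraries and 3.70% and 3.52% with GDC-0449, and ribosomal protein genes took 4.71% to 4.91% in the 4 libraries. The first principal component held 79.4% of the variance and separated the treatments, and the second held 11.4% and separated the libraries numbered 1 from those numbered 2.

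GDC-0449 lowered hedgehog target genes strongly and a large number of other genes slightly. Of 10008 genes, 3633 were called (36.3%), with 1878 lower (18.8%) and 1755 higher (17.5%). Most of these differences were small, with a median absolute log2 fold change of 0.24 among the called genes, and 2097 called genes (21% of those tested) differed by less than 1.2-fold. The larger changes leaned to one side. At 1.5-fold or more, 137 genes were lower (1.37% of those tested) and 65 higher (0.649%). At 2-fold or more, 58 were lower (0.58%) and 1 was higher (0.00999%), and at 4-fold or more 9 were lower and 0 higher. The smaller calls rest on the low spread between the libraries, a common biological coefficient of variation of 2.27%. DESeq2 called 1658 genes (983 lower, 9.82%, and 675 higher, 6.74%), all of them also called by edgeR in the same direction, and edgeR on all 10 libraries, with 1 estimate of the spread for every group, called 145 of 7244 genes. Alternatives with other filters removed no gene, so they could not change any call. Of the 59 genes called at 2-fold or more, 57 were called under each of 12 alternatives on the whole table, the exceptions being Etv1 and mt-Nd3.

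**Figure D1:**
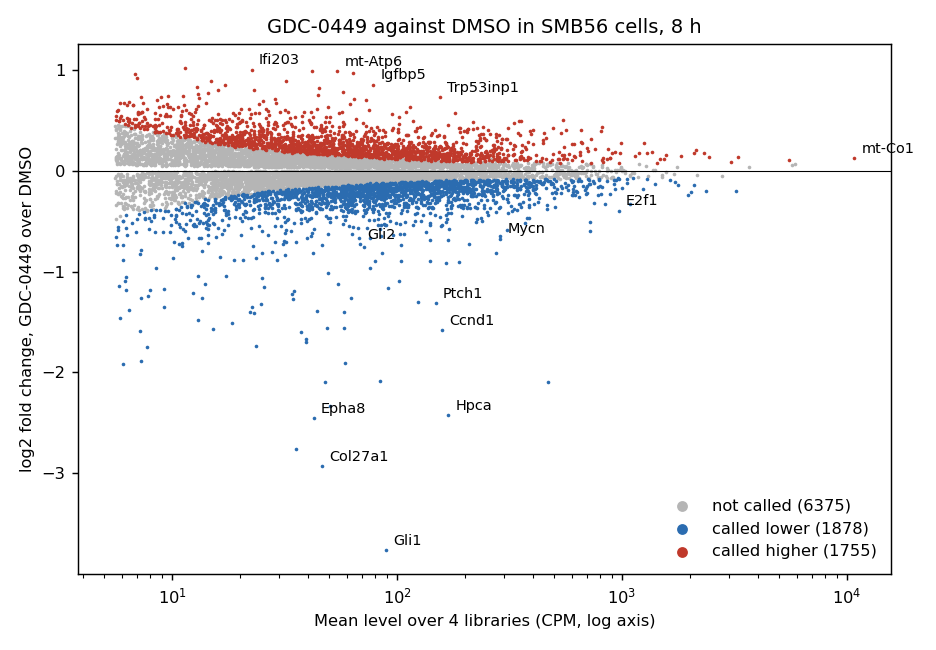
Each point is 1 of 10008 genes, with its mean level over the 4 libraries (CPM, log axis) against its log2 fold change, GDC-0449 over DMSO. Blue points are the 1878 genes called lower and red points the 1755 called higher; the lower tail reaches -3.76 at Gli1, whereas the upper edge lies at 1.02.

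Known hedgehog target genes were among those that fell furthest. Gli1, the GLI factor that is itself switched on by the pathway, stood at 169 and 165 CPM in the DMSO libraries and at 11.3 and 13.4 CPM with GDC-0449. Every treated library lay far below both control libraries. The difference was 13.5-fold (log2 fold change -3.76 ± 0.065, edgeR adjusted p = 8.8e-29), the largest of any gene in the table. Ptch1, the receptor whose mutation gives the line its genotype, was at 214 and 209.8 CPM with DMSO and at 85.6 and 85.2 CPM with GDC-0449. Its groups did not overlap, and it fell by 1.31 on the log2 scale (SE 0.040, adjusted p = 5.1e-22). Reads do not tell the Ptch1 alleles apart here.

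Other target genes fell by less than Gli1. Ccnd1, which encodes cyclin D1, fell from 235 and 242 CPM to 81.5 and 77.8 CPM (-1.58 ± 0.041, adjusted p = 5.6e-24). Bcl2, an inhibitor of apoptosis, was scarce and fell from 16.8 and 18.2 CPM to 8.50 and 8.47 CPM (-1.04 ± 0.121, adjusted p = 4.4e-08). Mycn, a transcription factor that maintains progenitor division, fell from 354 and 353 CPM to 228 and 215 CPM (-0.67 ± 0.035, adjusted p = 4.3e-16). None of these genes had a treated library inside the range of the controls. Sfrp1, a secreted WNT antagonist, fell from 435 and 441 CPM to 318 and 316 CPM (-0.47 ± 0.032, adjusted p = 6.2e-13). Ccnd2, which encodes cyclin D2, did not pass the test, at 1103 and 1110 CPM with DMSO and 1028 and 1108 CPM with GDC-0449 (-0.05 ± 0.032, adjusted p = 0.21). Its higher treated library lay between both controls, so the groups overlapped. In all, 7 of the 8 measured target genes on the list were called lower and 0 higher, where 18.8% and 17.5% of all genes were. The median log2 fold change of the list was -1.18 beside -0.01 over all genes. Hhip and Gli3, which were also to be named, are not among the table's rows and were not analysed here.

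Length-scaled levels order the targets differently from their folds. In the authors' FPKM, which divides by gene length as well as by depth, Ccnd2 was the highest of the targets named here in the DMSO libraries, at 136 and 137, followed by Mycn at 90.7 and 92.2, Sfrp1 at 69.0 and 69.9 and Ccnd1 at 60.6 and 61.3. Gli1 followed at 33.5 and 33.1 FPKM, then Ptch1 at 18.6 and 18.9 and Bcl2 at 1.80 and 2.07. With GDC-0449, Gli1 was at 2.08 and 2.85 FPKM, below Ptch1 at 7.92 and 8.22. Neighbours in the DMSO order did not overlap.

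**Figure D2:**
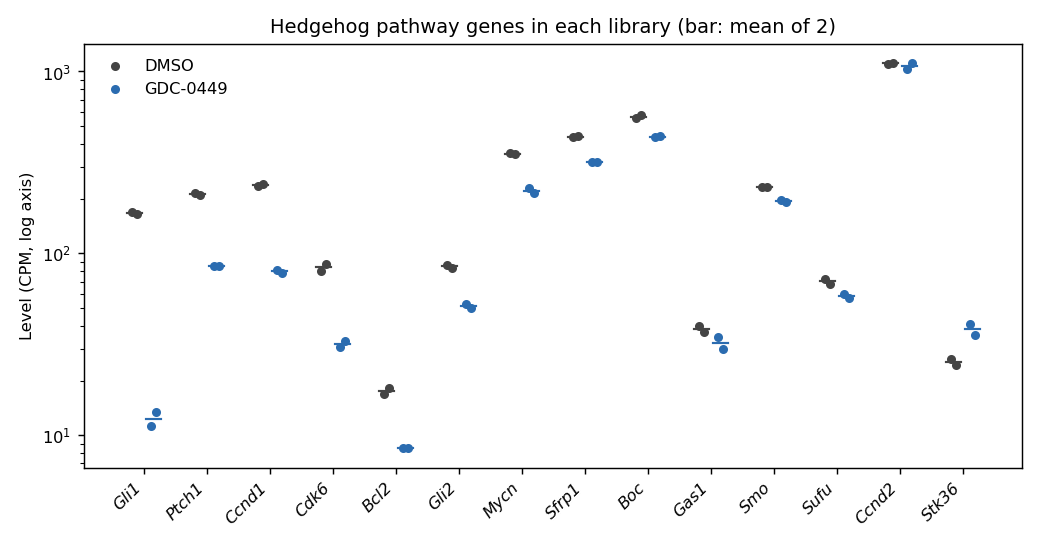
Level in each library (CPM, log axis) of 14 hedgehog pathway and G1 genes, with DMSO in grey, GDC-0449 in blue and a bar at the mean of 2 libraries. The gap between the groups is widest at Gli1, narrows towards Smo and Sufu, and closes at Ccnd2; Stk36 lies higher with GDC-0449.

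The receptors and the machinery that carries the signal moved much less than the targets. Boc, a co-receptor for hedgehog ligands, was at 553 and 577 CPM with DMSO and at 434 and 443 CPM with GDC-0449 (-0.37 ± 0.032, edgeR adjusted p = 1.7e-10). Smo, the drug's protein target, was at 231 and 232 CPM with DMSO and at 196 and 192 CPM with GDC-0449 (-0.26 ± 0.035, adjusted p = 8.4e-07). Its groups were separate, although the difference was 1.19-fold. Gas1, another co-receptor, fell from 40.0 and 37.2 CPM to 34.6 and 29.8 CPM (-0.26 ± 0.076, adjusted p = 0.0086). The co-receptor Cdon, close to the lowest level in the table, was at 7.51 and 6.90 CPM against 6.65 and 5.67 CPM and did not pass the test (adjusted p = 0.31). Including Ptch1, 5 of the 7 measured receptors and co-receptors were called lower and 0 higher, with a median of -0.26. Of all genes, 18.8% were called lower and 17.5% higher.

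Among the GLI factors and their intracellular regulators, 5 of 19 were lower and 4 higher (26.3% and 21.1%, against 18.8% and 17.5% of all genes), and DESeq2 called 4 and 1. Gli2, the main activator of the GLI family, fell from 86.9 and 83.6 CPM to 52.7 and 49.8 CPM (-0.73 ± 0.055, edgeR adjusted p = 5.2e-12). Sufu, which binds and restrains GLI factors, was at 72.6 and 68.1 CPM with DMSO and at 59.5 and 56.5 CPM with GDC-0449 (-0.28 ± 0.057, adjusted p = 0.00029). Both of these genes had separate groups and went down together. Evc2, a ciliary protein that transmits the SMO signal, was also lower (-0.33 ± 0.062, adjusted p = 0.00011). Stk36, a kinase related to fly Fused, went the other way, from 26.4 and 24.3 CPM to 40.9 and 35.6 CPM (0.60 ± 0.080, adjusted p = 6.3e-07). Of 29 genes for the primary cilium, 7 were called higher (24.1%, against 17.5% of all genes) and 0 lower, with a median of 0.12. Tctn1, a transition zone protein, had the lowest level of those named, at 12.6 and 14.9 CPM against 16.9 and 19.2 CPM (0.39 ± 0.111, adjusted p = 0.0068). DESeq2 called 0 of the 29, and 1 to 4 were called higher when 1 library was left out. Cdk7 (62.5 and 61.8 CPM, then 63.6 and 64.3 CPM) did not pass the test (adjusted p = 0.56).

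The other genes of large fall are not pathway components. Col27a1, a fibrillar collagen chain, had the second largest fold after Gli1, from 82.6 and 81.5 CPM to 10.3 and 11.3 CPM, a difference of 7.63-fold (-2.93 ± 0.077, edgeR adjusted p = 7.7e-24). Hpca, which encodes the neuronal calcium sensor hippocalcin, fell from 289 and 280.4 CPM to 52.3 and 54.0 CPM (-2.42 ± 0.043, adjusted p = 9.8e-29). Epha8, an ephrin receptor kinase, fell from 70.2 and 73.9 CPM to 12.8 and 13.6 CPM (-2.45 ± 0.077, adjusted p = 7.2e-22). These genes had control and treated levels over 5-fold apart. Adamts14, a procollagen peptidase, fell from 86.4 and 81.7 CPM to 17.4 and 15.9 CPM (-2.33 ± 0.072). Tbata, named for its expression in thymus, brain and testis, fell from 136 and 138 CPM to 33.2 and 31.2 CPM (-2.08 ± 0.054). Lrp8, a receptor for reelin, fell from 96.3 and 88.9 CPM to 26.1 and 23.3 CPM (-1.90 ± 0.067). Their groups did not overlap in any case. D630003M21Rik, a gene without a functional name that was picked out after its values were seen, had the smallest p of the table, at 754 and 771 CPM with DMSO against 177 and 179.6 CPM with GDC-0449 (-2.10 ± 0.034, adjusted p = 2.1e-29). A further gene of this kind, 4631405J19Rik, fell by 2.76 on the log2 scale.

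The list of large falls also held regulators of other pathways. Fosl2, an AP-1 subunit, fell by 1.70 (SE 0.076), from 58.3 and 62.6 CPM to 19.7 and 17.4 CPM. Rgma, a repulsive guidance molecule that binds neogenin, fell by 1.67 (SE 0.079), from 57.0 and 62.4 CPM to 20.3 and 17.1 CPM. Cyp26b1, which degrades retinoic acid, fell by 1.60 (SE 0.075), from 54.7 and 57.4 CPM to 19.3 and 17.6 CPM. Each had controls near 60 CPM and treated libraries near a level of 20 CPM or below. Smad3, which transmits TGF-beta signals, fell by 1.41 (SE 0.090) and Sox9, a transcription factor of neural stem cells and glia, by 1.39 (SE 0.071). The Notch glycosyltransferase Lfng, at 10.3 and 11.3 CPM in the controls, fell by 1.59 (SE 0.179). Dcpp1 and Dcpp2, from 11.4 and 11.5 CPM and from 10.9 and 13.1 CPM in the controls, fell by 1.88 and 1.75, but they are near-identical copies whose reads the counting could have split, so their separate values are uncertain.

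Among the genes of the G1 phase, Ccnd1 and Cdk6 fell by more than 2-fold, and the rest of their list fell little or did not pass the test. Cyclin D with CDK4 or CDK6 phosphorylates the RB proteins, which frees E2F transcription factors to turn on genes for DNA replication. Cdk6 fell from 80.4 and 87.6 CPM to 30.5 and 33.1 CPM (-1.41 ± 0.065, edgeR adjusted p = 2.1e-17). Its partner gene Ccnd3 was lower by a smaller step, from 50.3 and 49.6 CPM to 39.9 and 40.0 CPM (-0.32 ± 0.064, adjusted p = 0.0002). Cdk4, whose protein shares the role of CDK6, was at 631 and 634 CPM with DMSO and at 615 and 601 CPM with GDC-0449 and did not pass the test (adjusted p = 0.15). Of 8 D cyclin, CDK4/6 and RB genes, 4 were lower and 0 higher, with Rbl1 as the fourth, and the median of the list was -0.10. Of all genes, 18.8% were lower and 17.5% higher. Of 5 CDK inhibitor genes, only Cdkn1b, which encodes p27, was called, from 344 and 331 CPM to 439 and 448.9 CPM (0.40 ± 0.033, adjusted p = 4.9e-11). Cdkn1a, which encodes p21, was at 16.8 and 14.1 CPM against 17.7 and 16.6 CPM (adjusted p = 0.27).

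E2F genes and the genes for cyclin E were lower in most cases. E2f1, an activator of the E2F family, went from 1100.1 and 1098.7 CPM to 834 and 836 CPM (-0.40 ± 0.029, edgeR adjusted p = 2.6e-12). The libraries of each group lay close together and the groups did not overlap. In all, 8 of 10 E2F and partner genes were lower and 0 higher (median -0.26), E2f7 (-0.37) and Tfdp1 (-0.29) among them. The shares over all genes were 18.8% lower and 17.5% higher. With all 10 libraries, 1 of 7 was called lower, in a fit that called 107 of 7244 genes lower. Cdc25a, the phosphatase that activates CDK2, fell by 0.40 and Ccne2 by 0.34. The list of cyclin E and A, CDK2 and CDC25A genes had 5 of 6 lower (83.3%, against 18.8% of all genes) and 0 higher. The member that was not called was Ccna2, at 268 and 253 CPM against 259 and 254 CPM (adjusted p = 0.61).

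Genes that license and copy DNA were lower almost throughout. Of 43 measured, 36 were called lower (83.7%, against 18.8% of all genes) and 0 higher (against 17.5%), with a median log2 fold change of -0.32. In 40 of the 43 the groups did not overlap, where the share over the table was 70.8% (7087 genes). DESeq2 called 9.82% of all genes lower, and the fit with all 10 libraries called 107 of 7244 lower. DESeq2 called 28 lower, 32 to 35 were lower when 1 library was left out, and 14 of 38 were lower with all 10 libraries. Mcm2 and Mcm3, subunits of the MCM helicase, fell from 376 and 365 CPM to 246 CPM in both treated libraries, and from 202 and 212 CPM to 130.1 and 127 CPM. Mcm3 showed the largest fall of the list (-0.69 ± 0.039, edgeR adjusted p = 4.9e-15) and Mcm2 fell by 0.59. Mcm5 fell from 258 and 268 CPM to 186 and 185 CPM (-0.51 ± 0.035, adjusted p = 8.3e-13), and Chaf1b, a subunit of the chromatin assembly factor CAF-1, by 0.63. Summed over the list, the level was 5896 and 5867 CPM with DMSO and 4583 and 4552 CPM with GDC-0449.

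E2F factors bind a short motif in the promoters of many replication genes, and these promoters are shown because the list moved together. In the RefSeq promoter table (assembly GRCm38.p6, 250 bases before to 50 after each gene's start), 7648 of the table's genes had an entry, 35 of the 43 replication genes among them. The letters TTTCCCGC, TTTGGCGC or TTTCGCGC were searched on both strands, and overlapping matches were kept. They occurred in 13 of the 35 replication promoters (37.1%), in 4 of 8 E2F family promoters (50%), in 3 of 30 promoters of mitosis genes (10%) and in 352 of all 7648 (4.6%). Across the whole table, 118 of 1499 promoters of genes called lower held a match (7.87%), against 34 of 1317 of genes called higher (2.58%) and 200 of 4832 not called (4.14%). A match is a description of the letters and not evidence of binding. The 5 called replication genes of smallest p with a match in the 150 bases before the start are printed 5′ to 3′ on the gene's strand, with the matched letters in capitals. They are Mcm5 (chr8:75109359-75109508, plus strand), Mcm6 (chr1:128359706-128359855, minus strand), Cdc6 (chr11:98908001-98908150, plus strand), Rfc3 (chr5:151651209-151651358, minus strand) and Pola1 (chrX:93632156-93632305, minus strand).
Mcm5: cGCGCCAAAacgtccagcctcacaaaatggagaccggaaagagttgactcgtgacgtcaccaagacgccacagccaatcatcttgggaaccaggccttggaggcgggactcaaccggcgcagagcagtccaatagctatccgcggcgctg
Mcm6: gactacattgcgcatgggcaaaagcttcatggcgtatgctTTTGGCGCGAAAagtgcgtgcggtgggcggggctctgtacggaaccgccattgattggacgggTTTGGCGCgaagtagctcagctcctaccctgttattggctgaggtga
Cdc6: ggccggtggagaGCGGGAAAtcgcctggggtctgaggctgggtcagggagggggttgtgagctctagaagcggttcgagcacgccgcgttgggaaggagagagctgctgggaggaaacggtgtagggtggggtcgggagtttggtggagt
Rfc3: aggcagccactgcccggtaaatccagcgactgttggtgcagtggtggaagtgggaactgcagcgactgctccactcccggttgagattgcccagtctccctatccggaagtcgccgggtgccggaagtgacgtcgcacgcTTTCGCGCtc
Pola1: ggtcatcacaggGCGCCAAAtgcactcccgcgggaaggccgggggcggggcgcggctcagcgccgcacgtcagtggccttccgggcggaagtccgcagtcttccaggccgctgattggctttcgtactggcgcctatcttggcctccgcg
Mcm6, with 3 matches in these bases, had a log2 fold change of -0.38. The other genes with 1 match each were Mcm5 (-0.51), Cdc6 (-0.57), Rfc3 (-0.32) and Pola1 (-0.24). The letters GACCACCCA, a form of the GLI motif, occurred in 25 of the 7648 promoters (0.327%) and in 2 of 40 promoters of genes at least 2-fold lower. Only 3 of the 8 hedgehog targets had an entry, and 0 of them held these letters in this window.

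Nucleotide supply genes were lower in nearly every case, whereas few mitosis genes were. Of 25 genes for purine, pyrimidine and folate metabolism, 24 were called lower (96%, against 18.8% of all genes) and 0 higher, with a median of -0.35. With all 10 libraries, 2 of 22 were called lower, in a fit that called 107 of 7244 genes lower. Cad, which starts pyrimidine synthesis, fell from 201 and 205 CPM to 136 CPM in both treated libraries (-0.58 ± 0.037, edgeR adjusted p = 1.6e-13). Mthfd1 (-0.53) and Gart (-0.42) were the next by p, and Impdh1 was the member not called. In the list for homologous recombination and Fanconi repair, 11 of 25 were lower (7 by DESeq2) and 0 higher. Of all genes, 18.8% were lower (9.82% by DESeq2). The repair list was led by Exo1, an exonuclease, which fell from 193 and 196 CPM to 140.4 and 139 CPM (-0.48 ± 0.037). Of 38 mitosis and kinetochore genes, 3 were lower and 11 higher (7.89% and 28.9%, against 18.8% and 17.5% of all genes). Their median was 0.02, and DESeq2 called 2 lower and 4 higher. Cenpa, the centromeric histone, was higher (0.23 ± 0.042, from 125 and 130.1 CPM to 154 and 145 CPM), and Smc2, a condensin subunit, was lower (-0.16 ± 0.031). Ccnb1, which encodes cyclin B1, was at 205 and 207 CPM against 231 and 219 CPM (0.13 ± 0.036, adjusted p = 0.0065).

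**Figure D3:**
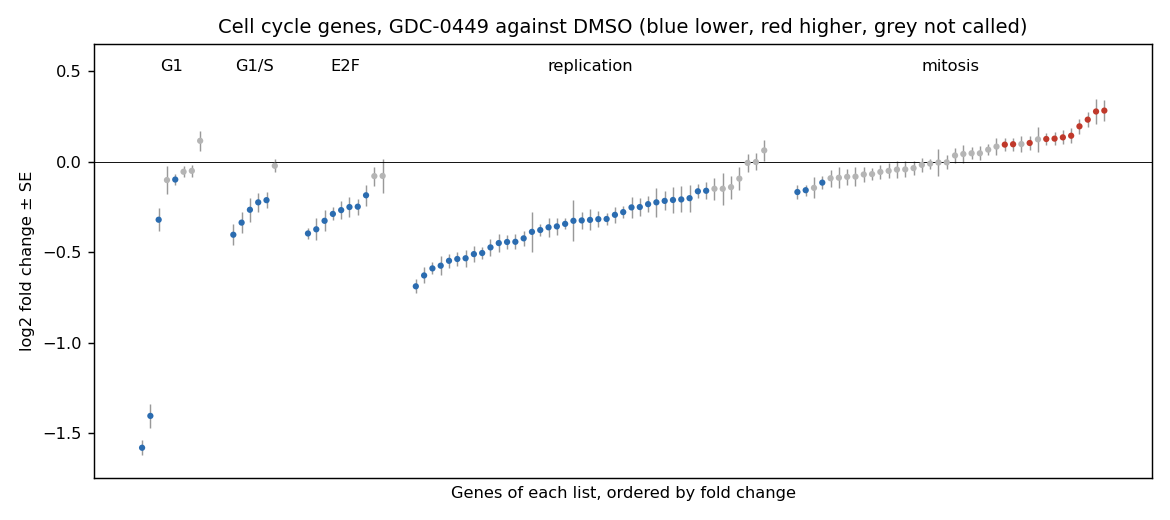
Log2 fold change with its SE for each measured gene of 5 cell cycle lists, ordered by fold change within a list (blue called lower, red called higher, grey not called). Replication genes lie between -0.69 and 0.06, whereas mitosis genes lie between -0.17 and 0.28, on both sides of 0.

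Genes for making ribosomes and charging tRNAs were lower, and the ribosomal protein genes were not shifted as a list. Of the ribosomal protein genes, 21.1% were lower and 11.3% higher, against 18.8% and 17.5% of all genes. Of 37 genes for ribosome biogenesis, 33 were lower (89.2%, against 18.8% of all genes) and 0 higher (median -0.29). With all 10 libraries 0 of the 30 then tested were called, in a fit that called 107 of 7244 genes lower. The sum of their levels was 7369 and 7238 CPM with DMSO and 6017 and 6062 CPM with GDC-0449. Fbl, the methyltransferase fibrillarin, fell from 296 and 286 CPM to 216 and 213 CPM (-0.44 ± 0.034, edgeR adjusted p = 1e-11), and Ncl, nucleolin, fell by 0.33. The aminoacyl-tRNA synthetases had 13 of 17 lower and 0 higher (0 of 15 called with all 10 libraries), led by Vars (-0.36). Of 71 cytosolic ribosomal protein genes, 15 were lower and 8 higher (7 and 3 by DESeq2, 6 to 22 and 2 to 9 with 1 library left out), with a median of -0.02 that became 0.01 with upper-quartile scaling and 0.00 with library size alone. The E-box letters CACGTG, which MYC proteins can bind, occurred in 6 of 31 ribosome biogenesis promoters (19.4%) and in 925 of all 7648 (12.1%). In the MYC network, Mycn was the only member of 12 called lower and 5 were higher (2 by DESeq2), with Mxd4, a MAX partner that opposes MYC, at 0.40 ± 0.039 and Mycl at 0.22 ± 0.044.

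Chaperone, stress response, glycolysis and lipid synthesis genes leaned lower. The shares over all genes were 18.8% lower and 17.5% higher (9.82% and 6.74% by DESeq2). Heat shock and chaperone genes had 11 of 17 lower and 2 higher, led by Hspd1, the mitochondrial chaperonin (-0.34 ± 0.032). The list for the unfolded protein and integrated stress responses had 12 of 21 lower (7 by DESeq2) and 2 higher, with Slc3a2, an amino acid transporter subunit, from 174 and 173 CPM to 105 and 110.4 CPM (-0.69 ± 0.041), and Ddit4, an inhibitor of mTORC1, higher (0.42 ± 0.036). Among glycolysis and hypoxia genes, 12 of 21 were lower and 2 higher. Hk2, a hexokinase, fell from 74.7 and 78.3 CPM to 49.7 and 49.1 CPM (-0.63 ± 0.057, edgeR adjusted p = 2.3e-10). Cholesterol and fatty acid synthesis had 14 of 30 lower and 0 higher, with Srebf1, the lipogenic transcription factor, at -0.50 ± 0.043 and Acaca, acetyl-CoA carboxylase, at -0.36 ± 0.037. The list for the TCA cycle and nuclear OXPHOS genes had 9 of 29 lower and 3 higher, and DESeq2 called 2 and 1 of them. Chromatin modifiers had 9 of 30 lower (5 by DESeq2) and 4 higher, with the maintenance methylation genes Uhrf1 (-0.47) and Dnmt1 (-0.42) leading. The circadian clock list, with 2 of 13 lower and 1 higher (15.4% and 7.69%, both below the shares of all genes), had 0 calls by DESeq2.

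Neuronal and granule lineage genes were higher. Of 17 measured granule neuron progenitor factors, 10 were called higher and 2 lower (median 0.27). Of 29 genes for neuronal differentiation and synapses, 18 were higher and 1 lower (median 0.21). The shares over all genes were 17.5% higher and 18.8% lower (6.74% and 9.82% by DESeq2). Barhl1, a homeobox factor of the granule lineage, went from 705 and 691 CPM to 944 and 932 CPM (0.43 ± 0.030, edgeR adjusted p = 8.2e-13). Atoh1, the factor that specifies granule neuron progenitors, went from 410.2 and 410.3 CPM to 515 and 509 CPM (0.32 ± 0.031, adjusted p = 1.6e-09), and Meis1, a homeobox factor, rose by 0.43 on the log2 scale. Both libraries of each group were close to each other and the groups were apart. Elavl3, a neuronal RNA-binding protein, went from 559 and 573 CPM to 733 and 762 CPM (0.40 ± 0.031), and Dcx, a microtubule protein of migrating neurons, from 219 and 218 CPM to 292 and 288 CPM (0.41 ± 0.034). Neurod6, a neuronal helix-loop-helix factor, was scarcer and rose from 21.98 and 21.6 CPM to 37.1 and 33.8 CPM (0.70 ± 0.080). The list of differentiation genes summed to 3852 and 3856 CPM with DMSO and 4498 and 4593 CPM with GDC-0449. When 1 library was left out, 14 to 17 of its members were called higher, and DESeq2 called 12. With all 10 libraries, 0 of 21 differentiation genes were called, and 2 of 13 progenitor factors were higher and 1 lower. That fit called only 38 of 7244 genes higher and 107 lower, so 0 of 21 does not set the list apart. In bulk RNA, more cells of a type and more RNA per cell cannot be told apart.

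The progenitor factors called lower were Plxnb2, a semaphorin receptor (-0.33 ± 0.030), and Etv1. Etv1 was at 11.2 and 14.4 CPM with DMSO and at 5.62 and 5.75 CPM with GDC-0449 (-1.17 ± 0.156, edgeR adjusted p = 5.4e-07). Potassium channel symbols were taken by the prefix Kcn and so include auxiliary subunits and 2 noncoding transcripts. They had 12 of 23 higher and 1 lower (52.2% and 4.35%, against 17.5% and 18.8% of all genes), with a median of 0.22. Kcnd3 rose from 293 and 307 CPM to 386 and 390 CPM (0.37 ± 0.034), and Kcna2 from 57.6 and 51.5 CPM to 78.9 and 75.9 CPM (0.51 ± 0.058). DESeq2 called 6 potassium channel symbols higher, where it called 6.74% of all genes higher. With all 10 libraries, 0 of 10 were called, but that fit called only 145 of 7244 genes, so this does not set the list apart.

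Axon guidance, Notch, WNT and SOX genes went in both directions. Over all genes, 18.8% were called lower and 17.5% higher (9.82% and 6.74% by DESeq2). Axon guidance had 8 of 27 lower and 10 higher (6 and 6 by DESeq2), with Rgma and Plxnb2 lower and the guidance ligand Ntn1 higher (0.36 ± 0.035). In the Notch list, 3 of 11 were lower and 5 higher (2 and 3 by DESeq2), where Lfng and the ligand Jag1 (-0.49 ± 0.058) fell and the inhibitory ligand Dll3 rose from 139 and 145 CPM to 195 and 194 CPM (0.46 ± 0.038). WNT genes had 7 of 18 lower and 4 higher (4 and 2 by DESeq2), with Wif1, a secreted inhibitor, at 8.35 and 8.91 CPM against 4.05 and 3.56 CPM (-1.18 ± 0.182, edgeR adjusted p = 5.9e-06). All 6 SOX genes measured were called, 3 in each direction. Sox9 fell from 62.9 and 64.3 CPM to 22.8 and 25.9 CPM and Sox1 fell by 0.52, whereas Sox5 rose from 11.2 and 10.1 CPM to 18.7 and 17.6 CPM (0.77 ± 0.114). In IGF signalling, the receptor substrate Irs1 fell from 349 and 348 CPM to 215 and 232 CPM (-0.64 ± 0.036), while Igfbp5, an IGF-binding protein, rose. In the BMP and TGF-beta list, 1 of 14 was lower, Smad3, and 3 were higher, led by Id2, an inhibitor of helix-loop-helix factors, from 77.0 and 75.6 CPM to 119 and 107 CPM (0.57 ± 0.050).

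Cell death and p53-related genes had no single direction. In the p53 target list, 4 of 16 were lower and 6 higher (25% and 37.5%, against 18.8% and 17.5% of all genes). DESeq2 called 2 lower and 3 higher. Trp53inp1, a p53-inducible stress protein, rose from 116 CPM in both controls to 196 and 189 CPM (0.73 ± 0.039, edgeR adjusted p = 1.1e-15), whereas Eda2r fell by 0.45. In the BCL2 family, 6 of 13 were lower and 2 higher, with the survival genes Bcl2 and Mcl1 (-0.20 ± 0.039) lower, and the pro-apoptotic genes Bok (-0.36) and Hrk (-0.16) lower as well. Immediate early genes had 3 of 8 lower, led by Fosl2, and 3 higher, among them Jun (0.29 ± 0.051). Of 14 FGF receptor and MAP kinase feedback genes, 2 were lower and 3 higher (14.3% and 21.4%), near the shares of all genes. Among them, Fgfr4 rose from 34.5 and 35.4 CPM to 52.4 and 54.5 CPM (0.61 ± 0.065). Neural stem and radial glia genes had 2 of 8 lower, Sox9 and Nes, and 5 higher, and histone variants had 3 of 10 in each direction.

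**Figure D4:**
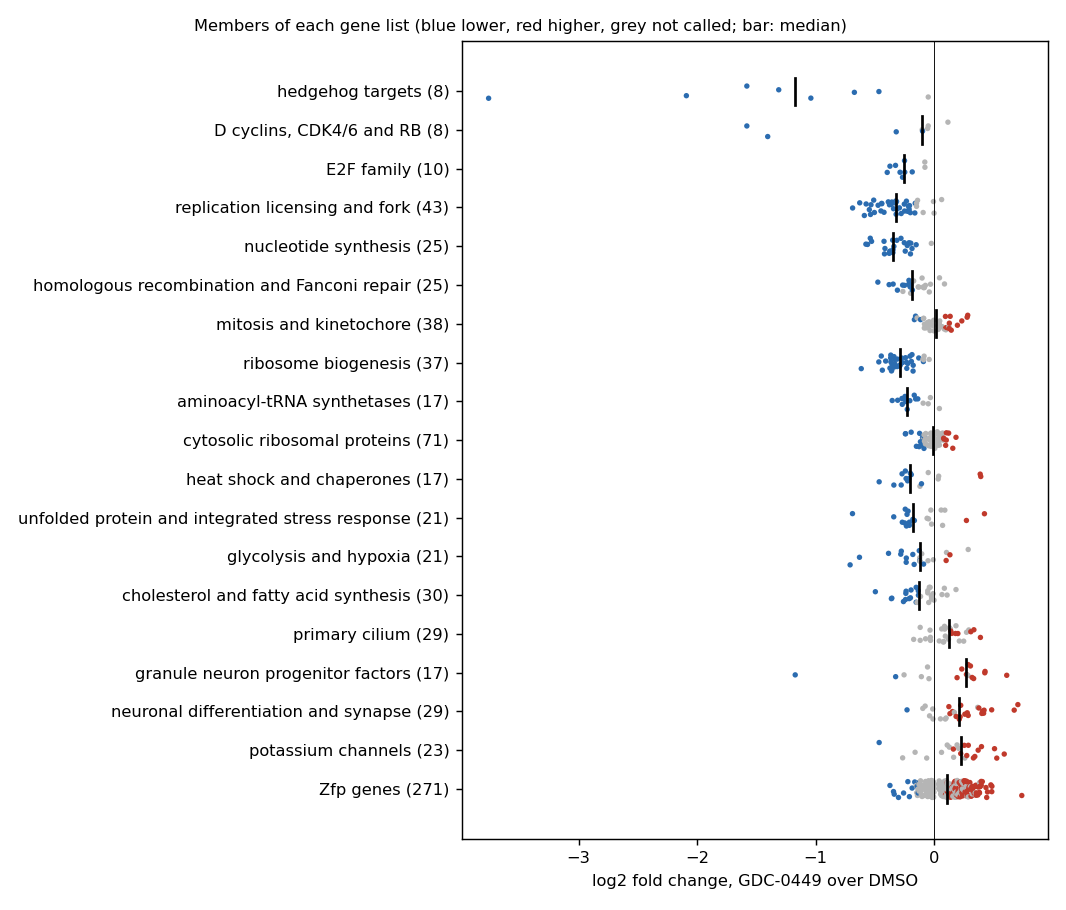
Log2 fold change, GDC-0449 over DMSO, of each measured member of 19 gene lists (blue called lower, red called higher, grey not called), with the number measured in brackets and a bar at the list median. The medians run from -1.18 for hedgehog targets through -0.35 for nucleotide synthesis to 0.27 for granule neuron progenitor factors.

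Zinc finger genes named Zfp were the largest family with a lean to higher levels. Of 271, 78 were called higher and 12 lower (28.8% and 4.43%, against 17.5% and 18.8% of all genes), with a median of 0.11. DESeq2 called 25 and 5, where its shares over all genes were 6.74% and 9.82%. With all 10 libraries, 0 of 195 Zfp genes were called, in a fit that called 38 of 7244 genes higher and 107 lower. Zfp760 went from 76.7 and 76.4 CPM to 100.2 and 99.5 CPM (0.38 ± 0.047, edgeR adjusted p = 1.3e-07), and Zfp423 from 75.0 and 73.5 CPM to 94.0 and 103 CPM (0.41 ± 0.051). Members of this family share long stretches of sequence, so reads may be split between them. Of 155 solute carriers, 38 were lower and 21 higher (24.5% and 13.5%, against 18.8% and 17.5% of all genes), and DESeq2 called 26 and 7. Slc29a1, an equilibrative nucleoside transporter, fell from 877 and 858 CPM to 571 and 574 CPM (-0.60 ± 0.030, adjusted p = 2.7e-16).

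The largest increases were less secure than the largest decreases. Ifi203, an interferon-inducible gene of a family with near-identical copies, was at 14.4 and 15.7 CPM with DMSO and at 30.2 and 30.1 CPM with GDC-0449 (1.00 ± 0.089, edgeR adjusted p = 2.2e-10). Igfbp5 went from 54.0 and 57.7 CPM to 102 and 99.3 CPM (0.85 ± 0.052, adjusted p = 3.6e-14). Mybpc1, a myosin-binding protein, went from 16.1 and 17.6 CPM to 27.8 and 31.1 CPM (0.80 ± 0.091), and Cemip, a hyaluronan-binding protein, from 32.1 and 34.4 CPM to 55.3 and 56.7 CPM (0.75 ± 0.066). These 4 genes had close controls and separate groups. In 7 of the 15 genes named for the largest increase, however, DMSO library 1 was under 60% of DMSO library 2, a threshold set after the values were seen, against 0 of the 15 named for the largest decrease. Over the table, 22 genes had library 1 that low and 2 genes had library 2 that low.

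The 7 were mt-Nd3, mt-Co3, mt-Atp6, mt-Nd4l, mt-Co2, Rps27rt and Rn7sk. The mitochondrial transcript mt-Atp6 was at 20.7 and 51.9 CPM with DMSO and at 65.2 and 79.5 CPM with GDC-0449. Its log2 fold change of 0.98 was 0.47 without DMSO replicate 1 and 1.80 without DMSO replicate 2. The corresponding values for mt-Co3 were 0.99, 0.58 and 1.58, and for mt-Nd3, the only gene called higher at 2-fold or more, 1.02, 0.63 and 1.56. The size of these increases depended on which control library entered the fit. For mt-Co2 the value was 0.78, and 0.35 without DMSO replicate 1, and for Rps27rt, a ribosomal protein gene copy, 0.85 and 0.42. For mt-Nd4l it was 0.95, and 0.42 without DMSO replicate 1, where the call was lost (edgeR adjusted p = 0.098). The call of Rn7sk, the small nuclear RNA 7SK, was lost likewise, its value of 0.83 becoming 0.33 (adjusted p = 0.062). DESeq2 called none of the 7, with adjusted p from 0.13 to 0.42.

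Mitochondrially encoded genes as a list had 13 of 14 called higher and 0 lower, with a median of 0.13. Of all genes, 17.5% were called higher and 18.8% lower. DESeq2 called 6.74% of all genes higher, and the fit with all 10 libraries called 38 of 7244 higher. The member with the most reads, mt-Co1, was at 10266 and 10366 CPM with DMSO and at 11480 and 10964 CPM with GDC-0449 (0.12 ± 0.026, edgeR adjusted p = 0.00049). Leaving out 1 library gave 10 to 14 called higher, DESeq2 called 6, and 0 of 14 were called with all 10 libraries. How far the low values of DMSO library 1 enter the list's count was not tested.

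**Figure D5:**
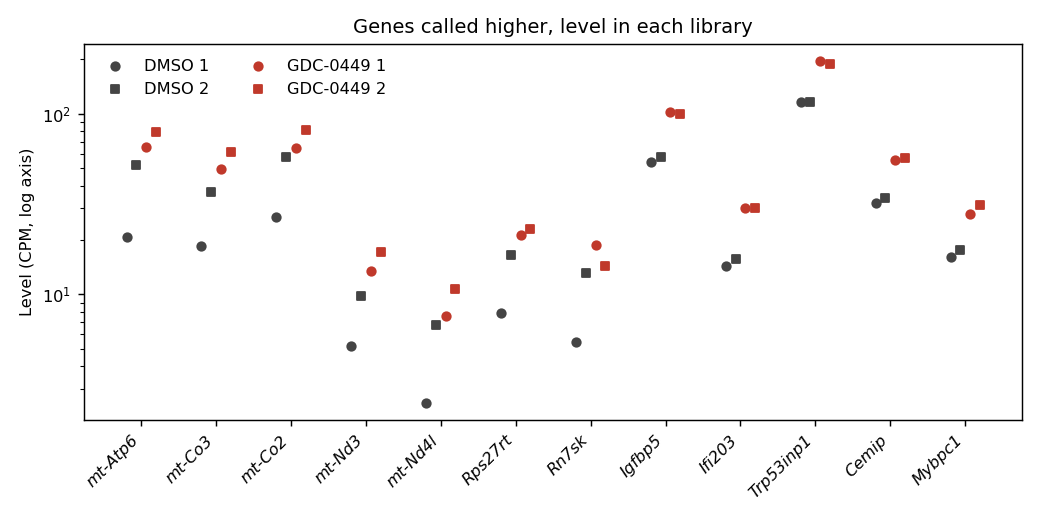
Level in each library (CPM, log axis) of 12 genes called higher, with DMSO in grey and GDC-0449 in red, circles for libraries numbered 1 and squares for those numbered 2. From mt-Atp6 to Rn7sk, DMSO 1 lies well below DMSO 2, whereas in Igfbp5, Ifi203, Trp53inp1, Cemip and Mybpc1 both controls lie together.

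The 2591 genes absent from the THZ1 table included several that fell furthest, and 3 of the 8 measured hedgehog targets. Among them are Ccnd1, Sfrp1, Bcl2 and Smo of the pathway lists, Cdk6 of the G1 genes, and Col27a1, Epha8, Fosl2 and Cyp26b1 of the large falls. Of the 2591, 825 were called (31.8%), with 375 lower (14.5%) and 450 higher (17.4%), and 20 were at least 2-fold lower (0.772%). Of the other 7417 genes, 2808 were called (37.9%), with 1503 lower and 1305 higher, and 38 were at least 2-fold lower (0.512%). Median levels differed too, at 30.8 CPM for the absent genes and 57.4 CPM for the rest, and the part of level in these shares was not tested. Of the 10007 genes in the THZ1 table, only 8 had an authors' adjusted p of 0.05 or more for THZ1 against DMSO. That table thus appears selected on the THZ1 outcome, and the part of this selection in the shares was not tested either. Among absent genes called higher, Neurod2, a neuronal helix-loop-helix factor, was at 11.1 and 10.7 CPM against 16.8 and 18.0 CPM (0.67 ± 0.114), and Zfp467 at 8.14 and 6.30 CPM against 11.7 and 12.4 CPM (0.74 ± 0.147). Ackr1, an atypical chemokine receptor, was at 5.29 and 7.71 CPM against 9.60 and 11.6 CPM (0.70 ± 0.167, edgeR adjusted p = 0.0014).

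Few markers of other brain cell types have a row in the table. How its rows were chosen is not known here, so a missing row does not measure the absence of a cell type. Of 8 astrocyte markers, 2 are in the table, Slc1a2 (585 and 594 CPM, then 694 and 743 CPM) and Glul (243 and 249.8 CPM, then 212 and 208 CPM), and Gfap, Aqp4 and S100b are not. Slc1a2 was called higher (0.29 ± 0.033) and Glul lower (-0.23 ± 0.035). Of 10 oligodendrocyte lineage markers, 4 are in it, with Olig1 at 185 and 191 CPM against 128 and 131 CPM (-0.54 ± 0.039, edgeR adjusted p = 1.4e-12). None of 10 microglia and leukocyte markers or 8 endothelial markers has a row, and 2 of 10 fibroblast and mural markers do, with summed levels of 36.5 and 37.7 CPM with DMSO and 33.6 and 28.7 CPM with GDC-0449. The granule lineage markers Atoh1, Barhl1, Zic1 and Meis1 were all present, whereas Pax6 and Zic2 have no row in the table.

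The authors' deposited table, with its folds turned to GDC-0449 over DMSO, gives an adjusted p under 0.05 to 1399 genes (14%), 951 lower (9.5%) and 448 higher (4.48%), of which 1398 were also called by edgeR in the same direction. In the authors' deposited table the log2 fold change of Gli1 is -3.28 and that of Ptch1 is -1.26.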

How the data were processed

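Per the labels' protocols, cells were harvested in Trizol, RNA was purified with a mirVana kit, and libraries came from a TruSeq kit. STAR 2.5.3a, Cufflinks 2.2.1 and DESeq2 1.20.0 appear in the submitters' processing notes with no step named. The notes also give the human build hg19, although the genes carry mouse Ensembl IDs, so no coordinates were taken from the files. The strand setting of the counting is not given, so overlapping antisense genes cannot be told apart. The authors deposited read counts per gene, the FPKM values and their own log2 fold change (DMSO over GDC-0449; its correlation across genes with the log2 ratio of GDC-0449 to DMSO counts was -0.975). The authors also deposited a p-value and an adjusted p-value per gene from their own comparison. Of 21 gene names that were blank or turned into dates, 17 were restored by gene ID.

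The 4 libraries were fitted alone on the deposited counts with edgeR 4.0.16 (R 4.3.3): TMM, filterByExpr, quasi-likelihood F test, 2 residual degrees of freedom, Benjamini-Hochberg adjustment over 10008 genes. Every gene passed the filter, and the lowest mean count was 79.5. The fit was tested on simulated data. Alternatives were other scalings, other filters, DESeq2 1.42.0, limma 3.58.1 on log2(FPKM + 1), a replicate block, fits with 6 and 10 libraries, and each library left out. Replicates of a group were compared by chi-square, at 1.85 per gene for DMSO and 1.81 for GDC-0449, so none was a copy.

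Genes were named by rule: 16 hedgehog and cell cycle genes always, the 15 higher and 15 lower of largest fold among called genes with a mean of at least 5 CPM, separate groups and no predicted name, 6 and 6 by the same rule among genes absent from the THZ1 table, and up to 4 members of smallest p per list. Other genes were named after their values were seen. The genes described and the lists were chosen with earlier results of these data known. Lists are described by counts and medians, with no set test. Promoters are from RefSeq (GRCm38.p6). Some genes are not reported here.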

Additional observations from a re-analysis of the deposited data

How the results depend on the processing

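With edgeR on the 4 libraries, counts of called genes stayed within 1.5-fold of 3633 under other scalings. The other filters removed no gene and so could not change the count. The fit with 6 SMB56 libraries called 2501 of 7417 genes, a smaller set than the 10008 behind the 3633. The fits with 6 and 10 libraries hold only genes that are also in the THZ1 table. Counts moved further with DESeq2, to 1658 (675 higher and 983 lower), and with limma on log2(FPKM + 1), to 634 (248 higher and 386 lower). With all 10 libraries they moved to 145 of 7244 genes (38 higher and 107 lower). The cause was not tested. Leaving out 1 library gave 2771 to 3036 calls, 1286 to 1455 higher and 1485 to 1620 lower. Each of these fits has 1 library in an arm, takes its spread from the other group and assumes that the lone library varies alike, so they show the dependence on a library and not stability. The labels do not say whether replicate numbers pair the libraries. Deviations of same-numbered libraries correlated at 0.0908, and the second principal component separated libraries numbered 1 from those numbered 2. A replicate block gave 3965 calls (1932 higher and 2033 lower). Whether same-numbered libraries share a component was not tested. Scaling moved the median of all genes by at most 0.02 on the log2 scale, and the higher calls numbered 2123 with upper-quartile scaling, against 1583 lower. Of 189 named genes, 180 were called; 25 lost the call with DESeq2, 84 with limma on FPKM, 105 of 149 with all 10 libraries, 5 of 151 with 6, and 2 to 11 with 1 library left out. Directions reversed in the FPKM fit alone, for Knstrn (-0.045) and Kif3a (-0.004). Precision is limited by 2 residual degrees of freedom, and genes below the table's lowest mean count, 79.5, are not represented.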
